A study of Mus musculus with 68 samples.

Results

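The 10 genes described here encode chaperones, disulfide isomerases and a transcription factor of the endoplasmic reticulum (ER) stress pathway: Hspa5, Hyou1, Dnajb9, Sdf2l1, Hsp90b1, Calr, Pdia3, Pdia4, Pdia6 and Xbp1. They were taken as a named list, chosen with earlier results of these data known. They were found by symbol among the 18088 genes of the deposited table, and each matched 1 row. All 10 passed the filter on low values, which left 17922 genes to test. RNA-seq was run on C57BL/6J mouse prefrontal cortex taken on day 25 after birth, when the pups had received drug in their mothers' milk for 3 weeks (days 3 to 24). The comparisons ask how heterozygosity for Adnp, which encodes a nuclear protein linked to a neurodevelopmental syndrome, and each of the drugs relate to gene expression in this tissue. The 68 libraries make 12 groups by Adnp genotype, treatment and sex. The vehicle groups were heterozygous (HT) females (8) and males (8) and wild-type (WT) females (8) and males (7). Fluoxetine, a serotonin reuptake inhibitor, had 5 libraries for each sex and genotype. Lithium, a mood stabilizer, was given to HT females (4) and males (5) and to WT females (5) and males (3). The labels do not say what the HT allele carries, which litter a mouse came from, or what the vehicle was, so p-values measure the spread between libraries and littermates cannot be told apart.

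Proteins that enter the ER fold with the help of Hspa5 (BiP) and its co-factors, of lectin chaperones such as calreticulin, and of disulfide isomerases. When unfolded protein builds up, Hspa5 leaves the sensors Ire1, Perk and Atf6. Ire1 then splices the Xbp1 mRNA, and spliced Xbp1 and cleaved Atf6 switch on chaperone genes through ER stress elements (ERSE) in their promoters. Neurons, which make large amounts of membrane and secreted protein, express these chaperones at a steady level.

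The ERSE is CCAAT, 9 bases of any kind, then CCACG, and its second form (ERSE-II) is ATTGG, 1 base, then CCACG. Both were searched on both strands of RefSeq promoters (build GRCm38.p6), from 250 bases before to 50 after the start. Of the 10 genes, 9 had an entry (Hyou1 had none), and 4 of these 9 (44.4%) held an ERSE. For either form the share was 0.155% of all 32851 promoters and 0.181% of the 27025 gene symbols. The 10 genes were listed as members of the pathway that acts through this element, so the contrast is no test. Hsp90b1 held 2 copies and Hspa5, Pdia6 and Calr held 1 each. The 5 copies are shown because they are the letters these promoters share. Each is given 5′ to 3′ on the strand that reads CCAAT first, with 5 bases on either side and the 2 parts of the motif in capitals.
Hspa5, chr2:34772020-34772048: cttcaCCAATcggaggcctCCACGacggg
Hsp90b1 far copy, chr10:86705633-86705661: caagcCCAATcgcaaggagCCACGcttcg
Hsp90b1 near copy, chr10:86705528-86705556: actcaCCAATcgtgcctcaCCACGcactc
Pdia6, chr12:17266486-17266514: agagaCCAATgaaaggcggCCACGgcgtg
Calr, chr8:84847070-84847098: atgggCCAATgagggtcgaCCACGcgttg

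Counted from the RefSeq start, the Hspa5 copy lies at -65 to -47, those of Hsp90b1 at -212 to -194 and -107 to -89, that of Pdia6 at -98 to -80 and that of Calr at -162 to -144. The near copy of Hsp90b1 and the Calr copy run on the strand opposite to their gene, and the other 3 run with it. By the GENCODE annotation Hspa5 begins at 34771970, so its copy lies inside that gene. The stretch before Hsp90b1 (chr10:86705510-86705694, minus strand, given 5′ to 3′) shows how its copies sit in opposite orientation in 1 promoter.
Hsp90b1 upstream: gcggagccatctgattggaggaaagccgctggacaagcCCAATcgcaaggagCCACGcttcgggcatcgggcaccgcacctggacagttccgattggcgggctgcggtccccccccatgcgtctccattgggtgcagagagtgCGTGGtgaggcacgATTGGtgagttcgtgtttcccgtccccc

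The Xbp1 promoter is shown beside it because Xbp1 had the smallest p in the sex comparison described further on and holds no ERSE in this window (chr11:5520391-5520640, plus strand).
Xbp1 upstream: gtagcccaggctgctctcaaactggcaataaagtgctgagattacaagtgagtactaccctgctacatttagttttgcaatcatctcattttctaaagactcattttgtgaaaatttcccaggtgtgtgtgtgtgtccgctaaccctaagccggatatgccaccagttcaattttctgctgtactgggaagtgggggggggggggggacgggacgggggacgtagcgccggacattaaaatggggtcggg

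Pdia3, Pdia4, Dnajb9 and Sdf2l1 also had no match to either form, which says only that these letters are not in this window. For Dnajb9 the whole window lies inside the GENCODE gene (minus strand, 44205559 to 44210326), so bases upstream of that gene were not searched. The shorter motif TGACGTG (the core of the unfolded protein response element) occurred in Hspa5 at -157 to -151 and in no other of the 9. Its share was 2.01% of all promoters and 2.22% of gene symbols. In other lists with a promoter entry, an ERSE of either form occurred in 4 of 19 further ER chaperones, 3 of 19 genes of ER-associated degradation, 1 of 15 further ER isomerases and oxidases, and 1 of 17 genes of translocation and N-glycosylation. It occurred in none of 9 sensors and transducers, 14 Atf4 and integrated stress response genes, 16 cytosolic heat shock chaperones and 8 mitochondrial chaperones.

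Levels are given as the deposited values, which are gene counts divided by a size factor of each library. Per kilobase of exon (GENCODE release 21 of build GRCm38), Calr stood highest at a median of 3229 over the 68 libraries, followed by Hsp90b1 at 1925. Hspa5, at 1529 per kilobase, and Pdia3, at 1486, came next, then Pdia6 at 720.1, Xbp1 at 579.8, Hyou1 at 423.3, Pdia4 at 403.3, Dnajb9 at 369.3 and Sdf2l1 at 263.9. Neighbours in this order overlapped in range except at 2 places: the lowest Calr library (2724) lay above the highest of Hsp90b1 (2239), and the lowest of Pdia3 (1295) above the highest of Pdia6 (921.8). Before division by length, Hsp90b1 had the narrowest range for its level, from 6865 to 9026, and Pdia3 ran from 4066 to 5472. Sdf2l1 had the widest, from 174.4 to 479.2. Hspa5 (chromosome 2, 34771970 to 34777547) ranged from 5080 to 8970.

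**Figure D1:**
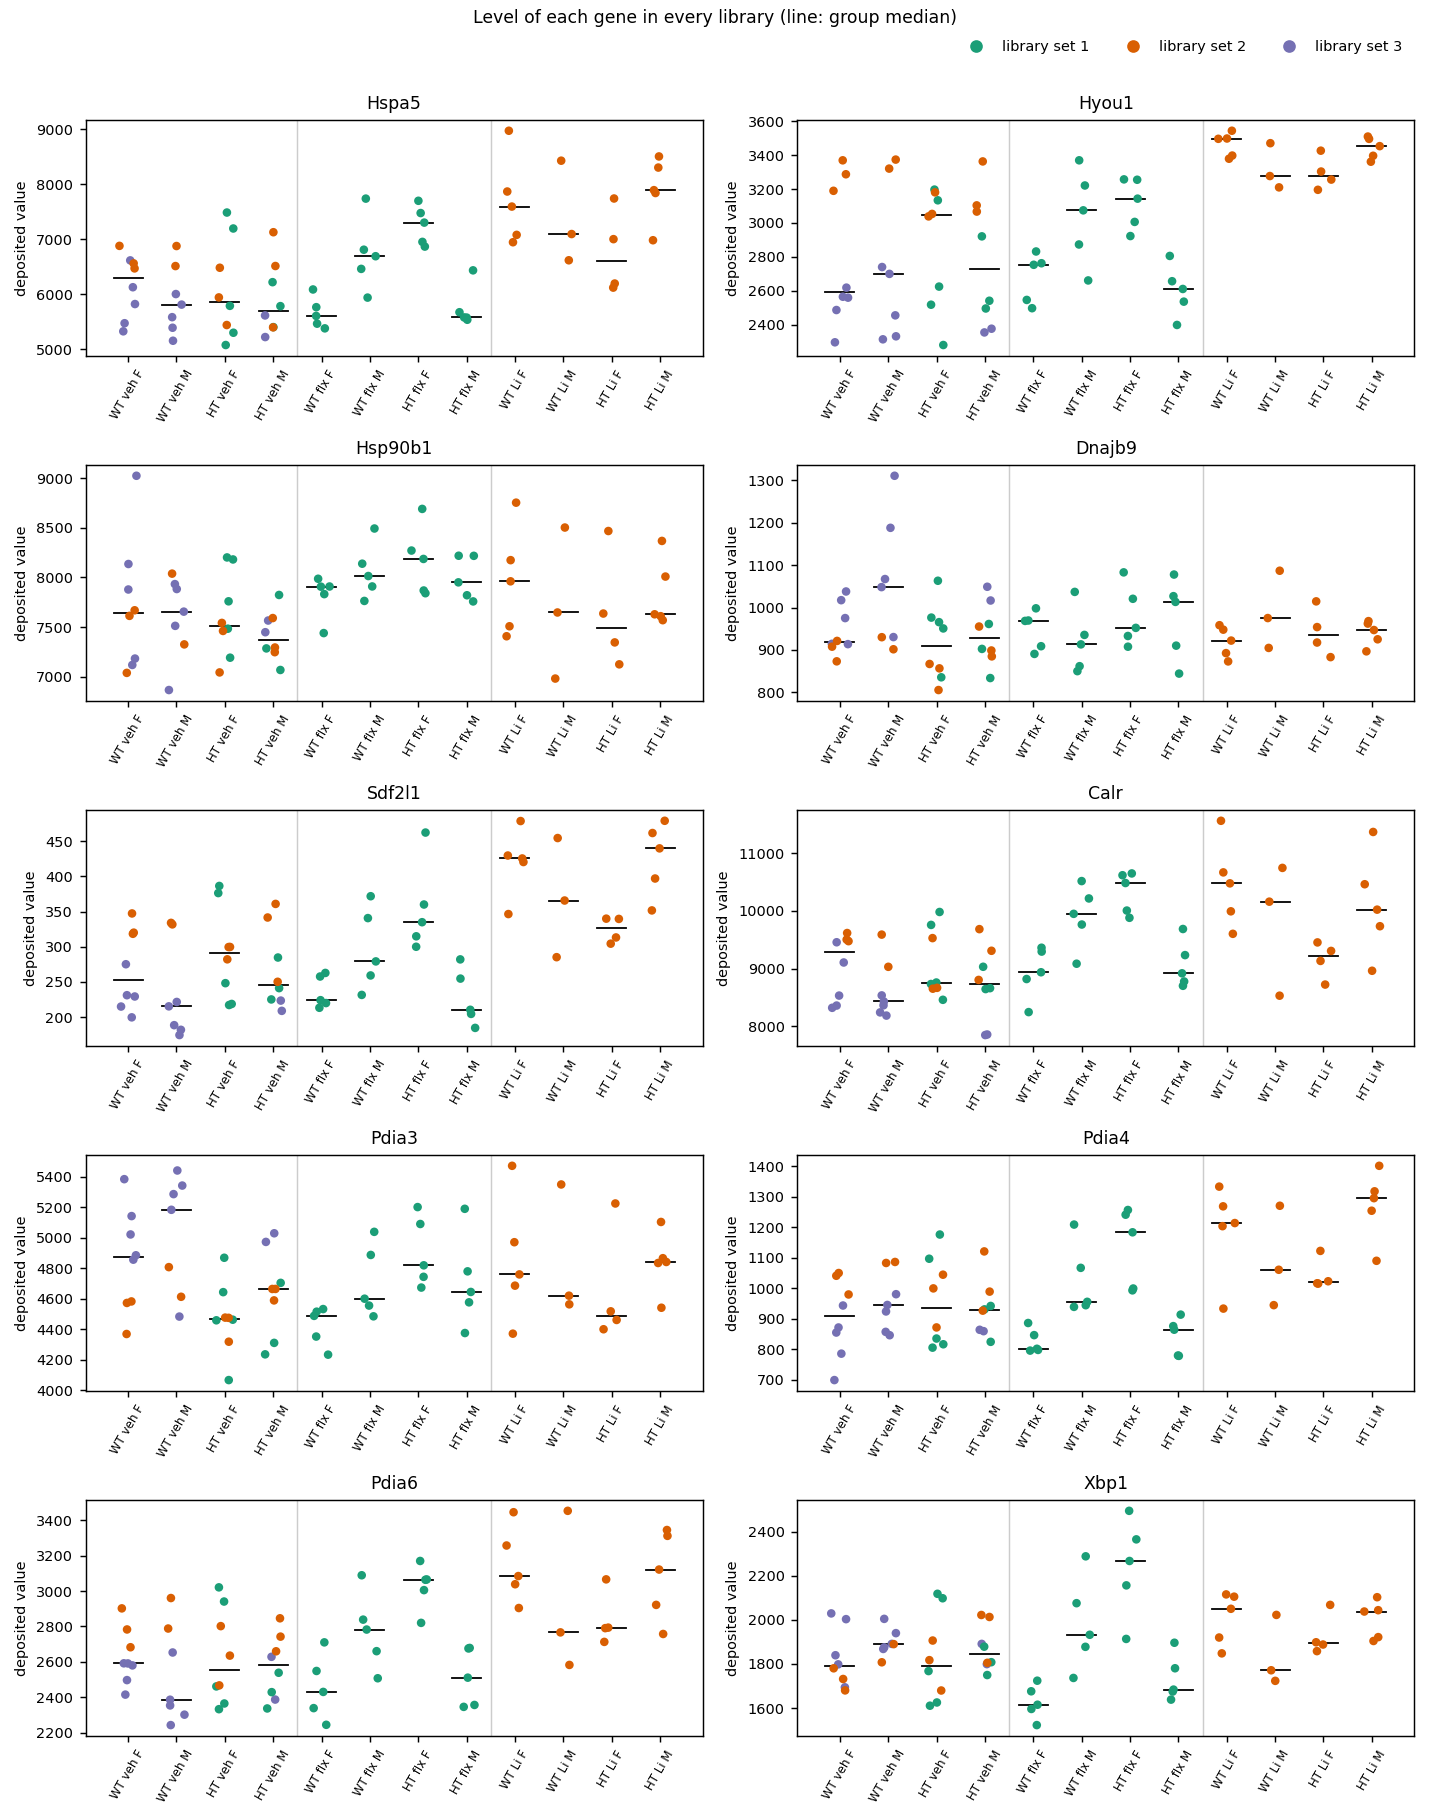
Deposited value (vertical axis, not starting at 0) of each of the 10 genes in each of the 68 libraries, by group (horizontal axis: WT or HT, vehicle (veh), fluoxetine (flx) or lithium (Li), female (F) or male (M)); points are libraries, coloured by library set, and lines are group medians. Hyou1 and Sdf2l1 in WT vehicle separate by set, and the fluoxetine groups form a cross-over by genotype and sex for Hspa5, Sdf2l1, Calr, Pdia4, Pdia6 and Xbp1.

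Facts of the whole series bear on these values. Total recovered reads ran from 22356015 to 37534435 per library. By their levels of 361 pseudogenes the libraries fell into 3 sets that the labels do not name. Set 1 held all 20 fluoxetine libraries and 8 HT vehicle ones. Set 2 held all 17 lithium libraries and the vehicle libraries numbered 6 or above (6 HT, 5 WT). Set 3 held the other 10 WT vehicle libraries and 2 HT vehicle males. Lithium can therefore be compared with vehicle inside set 2, and genotype under fluoxetine inside set 1, whereas fluoxetine and set cannot be told apart in WT. Adnp itself ran from 1730 to 2845 in vehicle libraries labelled HT (n = 16) and from 1077 to 2290 in those labelled WT (n = 15), so it was higher rather than lower under the HT label (0.32, SE 0.07, adjusted p = 0.0021). Gene counts do not show which allele was read, and directions between genotypes below are those of the labels. All 10 excitatory neuron markers of cortex were present, with a summed level of 140709 to 233843. Summed striatal neuron markers ran from 4428 to 19720 between libraries and olfactory bulb markers from 595.4 to 31090. Whether the amount of neighbouring tissue differed between libraries was not tested. In bulk tissue fewer cells of a type and less RNA per cell cannot be told apart.

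Under fluoxetine, the genotype effect on these genes differed between the sexes. In females given fluoxetine, Xbp1, Hspa5, Pdia4, Pdia6 and Calr were higher in HT than in WT. In males given fluoxetine, none of the 10 passed the test between genotypes, although 9 of 10 had a lower mean log2 level in HT. In males 6 of 10 had an unadjusted p under 0.05, as had 1777 of all 17922 genes. These single-sex comparisons were added after the difference between the sexes was seen. The test of the difference itself, the HT minus WT difference of females minus that of males, called 6 of 10 genes, all in the positive direction. Of all 17922 genes, 0.485% were called in this comparison and 0.357% in the positive direction. The 10 genes were chosen with earlier results of these data known, so these shares are no test of the list. Most of the 10 were also positively correlated from library to library, so the calls are not independent. All 20 libraries lie in 1 library set. Tests were limma fits of log2(value + 1) over the 12 groups, with p-values adjusted over all tested genes by Benjamini-Hochberg and a threshold of 0.05.

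Xbp1, the transcription factor of the list, had the smallest p of the 17922 genes in that comparison. Its values in HT females given fluoxetine were 1913, 2267, 2365, 2494 and 2156. In WT females they were 1615, 1676, 1724, 1523 and 1596. HT and WT females did not overlap. HT males had 1780, 1638, 1684, 1896 and 1675. WT males had 1737, 1932, 1878, 2075 and 2288. In males the order of the genotypes was the opposite on average, with overlapping values. The log2 difference between genotypes was 0.46 in females (SE 0.07, 1.37-fold, adjusted p = 1.4e-05) and -0.19 in males (SE 0.07, adjusted p = 0.22). The difference of these differences was 0.64 (SE 0.09, adjusted p = 5.8e-05). Gene-level values do not separate spliced from unspliced Xbp1.

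Hspa5, the ER Hsp70 that binds the stress sensors, followed the same pattern. HT females given fluoxetine had 6867, 7698, 7302, 7476 and 6952, and WT females had 5467, 6088, 5608, 5382 and 5767. The lowest HT female thus lay above the highest WT female. HT males had 5675, 5538, 5578, 6435 and 5581, and WT males had 5941, 6462, 6692, 6810 and 7738. Only HT male replicate 4 reached into the range of the WT males. The genotype difference was 0.36 in females (SE 0.09, adjusted p = 0.016) and -0.22 in males (SE 0.09, adjusted p = 0.32). The difference between the sexes was 0.58 (SE 0.13, adjusted p = 0.014).

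Among the co-factors of Hspa5, Sdf2l1, a small protein that works with its J-domain partners, moved most on the log2 scale. Its values were 334.9, 300.0, 360.1, 462.4 and 314.8 in HT females given fluoxetine and 219.9, 262.8, 224.0, 213.2 and 257.7 in WT females. HT males had 282.0, 204.5, 184.6, 254.7 and 210.3, and WT males had 231.5, 279.1, 259.2, 340.8 and 371.9. The females of the 2 genotypes did not overlap and the males did. The difference between the sexes was 0.95 (SE 0.24, adjusted p = 0.041), while the female difference alone, 0.58, missed the threshold (adjusted p = 0.053). Hyou1, the nucleotide exchange factor of Hspa5, had 2923 to 3257 in HT females and 2497 to 2832 in WT females, again without overlap. Its difference between the sexes was 0.44 (SE 0.13) and missed the threshold (adjusted p = 0.11) with all libraries. With each group split by library set in the fit, the same difference had an SE of 0.08 and passed (adjusted p = 0.0024), and 7 of 10 genes were then called against 1.29% of all genes. Dnajb9, a J-domain protein that hands unfolded clients to Hspa5, was at 907.8 to 1083 in HT females and 890.7 to 998.3 in WT females, and its difference between the sexes was -0.04 (adjusted p = 0.92 in the split fit).

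The disulfide isomerases were not alike. Pdia4 had 999.3, 1242, 1184, 1257 and 993.2 in HT females given fluoxetine and 846.1, 885.9, 795.3, 801.3 and 797.5 in WT females. HT males had 863.9, 779.2, 778.0, 913.5 and 875.7, and WT males had 938.9, 944.4, 955.5, 1067 and 1209. Pdia4 did not overlap between the genotypes in either sex, with HT above WT in females and below it in males. Its genotype difference was 0.45 in females (SE 0.10, adjusted p = 0.0056) and -0.28 in males (SE 0.10, adjusted p = 0.24), and the difference between the sexes was 0.73 (SE 0.14, adjusted p = 0.0048). Pdia6 ran from 2820 to 3169 in HT females against 2246 to 2711 in WT females, and from 2347 to 2679 in HT males against 2508 to 3089 in WT males. Its difference between the sexes was 0.44 (SE 0.10, adjusted p = 0.025). Pdia3, which acts on glycoproteins held by calreticulin, was at 4673 to 5201 in HT females and 4233 to 4532 in WT females, with a female difference of 0.15 (SE 0.06, adjusted p = 0.19). Its difference between the sexes was 0.15 and did not pass (adjusted p = 0.35 in the split fit).

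Of the remaining chaperones, Calr, the lectin chaperone and calcium store of the ER, ran from 9881 to 10651 in HT females given fluoxetine and from 8243 to 9361 in WT females. HT males had 8700 to 9686 and WT males 9083 to 10518. The Calr difference between the sexes was 0.34 (SE 0.09, adjusted p = 0.043). Hsp90b1, the Hsp90 of the ER, stood at 7841 to 8692 in HT females and 7439 to 7987 in WT females, with overlap. Its difference between the sexes was 0.08 and did not pass (adjusted p = 0.71 in the split fit). In females, 8 of 10 genes had no overlap between the genotypes, and the share of all genes without overlap was not computed. In the test, 5 of 10 were called in females, against 2.06% of all genes called. Cell markers were called lower in HT in the same female comparison, where 1.03% of all genes were called lower. These were 4 of 9 mural markers (median -0.40, 0 positive) and 2 of 10 endothelial markers (median -0.26, 1 positive). They included 2 of 9 oligodendrocyte precursor markers (median -0.23, 0 positive) and 1 of 10 astrocyte markers (median -0.21, 0 positive). Of 10 excitatory neuron markers 1 was called lower, though 6 were positive and the median was 0.11. Cspg4 is on both the mural and the oligodendrocyte precursor lists and is counted in each. No marker was called higher, and the 10 striatal neuron markers were all positive, with a median of 0.54. In males, 0 of the 10 genes were called against 0.859% of all genes, and no marker was called. Striatal neuron markers had a median of -0.42 there.

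Compared between the sexes within HT fluoxetine libraries, only Xbp1 was called (0.36 higher in females, SE 0.07, adjusted p = 0.0012), where 0.112% of all genes were called. Within WT fluoxetine libraries none of the 10 was called, against 0.0893%. Xbp1 was there 0.28 lower in females, a log2 difference of -0.28 (SE 0.07, adjusted p = 0.076).

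**Figure D2:**
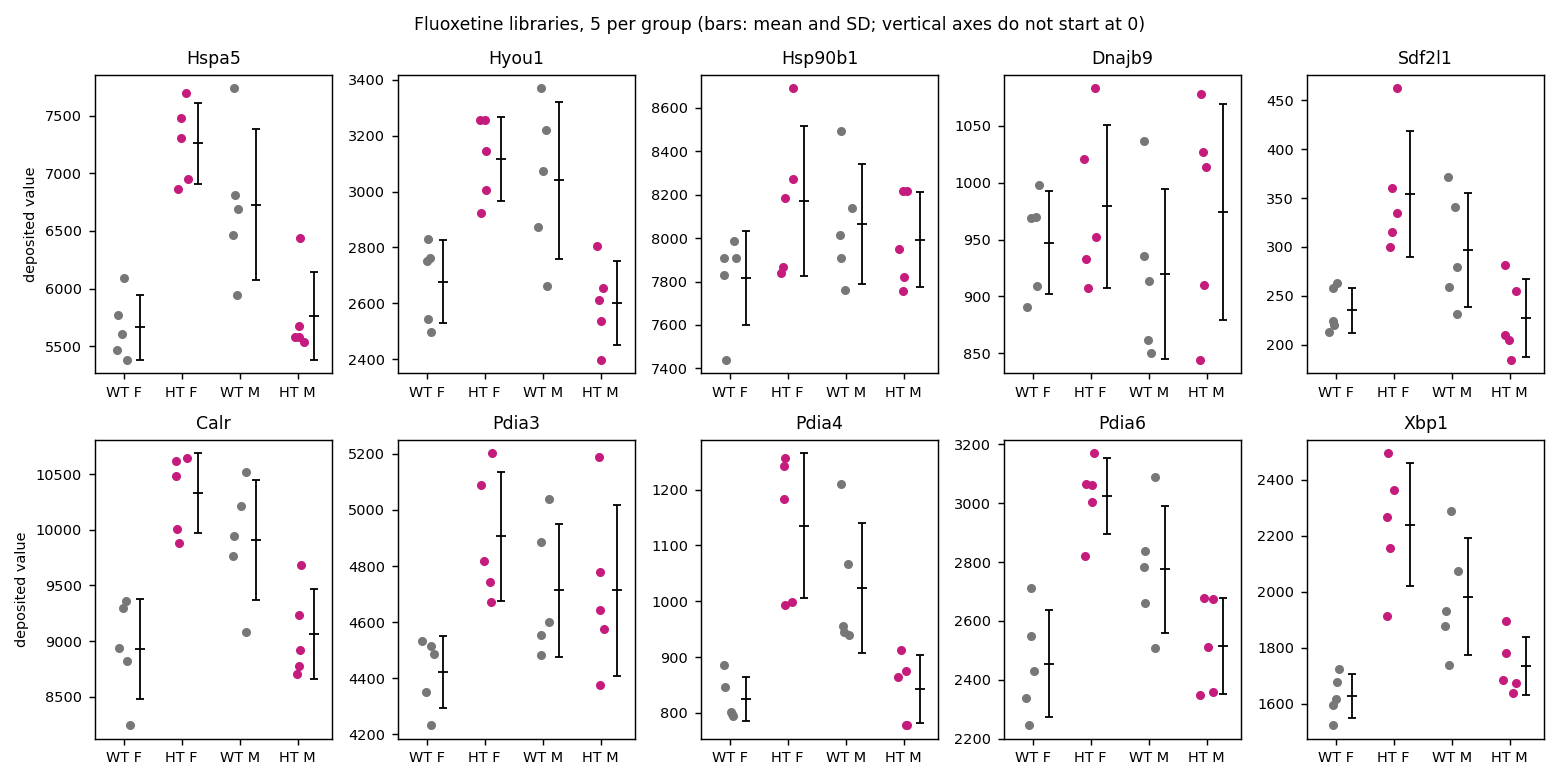
Deposited value (vertical axis) of the 10 genes in the fluoxetine libraries by genotype and sex (horizontal axis), 5 libraries a group, grey WT and pink HT; points are libraries and bars are mean and SD. HT females lie above WT females without overlap for every gene but Hsp90b1 and Dnajb9, and overlap was not counted over all genes. HT males lie below WT males on average for the called genes, as with Hspa5 at 5538 to 6435 against 5941 to 7738.

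Other genes of the pathway were counted in the same comparison, with no test between lists. Of 25 further ER chaperones and co-chaperones, 2 were called higher: Manf, a secreted ER stress protein, by 0.52 (SE 0.10, adjusted p = 0.0048), and Creld2, an ER protein induced by stress, by 0.68 (SE 0.17, adjusted p = 0.032). Herpud1, a scaffold of ER-associated degradation, was the 1 called gene of 24 in its list, at 0.45 (SE 0.11, adjusted p = 0.032). Txndc11 was the 1 called of 16 tested ER isomerases and oxidases, at 0.30 (SE 0.07, adjusted p = 0.021). None was called, in either direction, of 12 sensors and transducers, 22 tested genes of translocation and N-glycosylation, 16 Atf4 and integrated stress response genes, 21 cytosolic heat shock chaperones and 9 mitochondrial chaperones. The median difference was 0.44 over the 10 genes, 0.16 over the cytosolic heat shock chaperones, 0.09 over translocation and N-glycosylation, between -0.03 and 0.03 over the other lists, and -0.0049 over all genes.

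Markers of other cells leaned with this comparison, though none of the 12 marker lists had a called gene. Over striatal neuron markers the median difference was 1.08 with 10 of 10 positive, and their summed level ran from 5472 to 16704 in HT females given fluoxetine, 4755 to 5072 in HT males, 4705 to 13242 in WT females and 4732 to 10463 in WT males. Medians were -0.65 over 9 choroid plexus markers, -0.46 over 9 mural markers, -0.45 over 10 olfactory bulb markers, -0.37 over 10 meningeal fibroblast markers and -0.30 over 10 endothelial markers. Marker scores were made for 8 classes of cell or tissue, and olfactory bulb and excitatory neurons had none. With these 8 marker scores as covariates, Xbp1 kept a difference of 0.56 (adjusted p = 0.000455) and the other 5 genes were no longer called. Pdia4 had 0.54 in that fit (0.73 without the scores, adjusted p = 0.087 with them) and Sdf2l1 0.53 (from 0.95, adjusted p = 0.31). Hspa5 had 0.28 (from 0.58, adjusted p = 0.28), Pdia6 0.17 (from 0.44, adjusted p = 0.44) and Calr 0.14 (from 0.34, adjusted p = 0.43). The same fit called Xbp1 alone in females (0.28, adjusted p = 0.024) and alone in males, where it was lower in HT (-0.28, adjusted p = 0.0046). Leaving out single libraries, the count of called genes in this comparison fell to 2 without WT male replicate 5. It fell to 3 without WT male replicate 4, HT female replicate 4, HT male replicate 3 or HT male replicate 5. Xbp1 and Pdia4 passed in each of the 20 leave-one-out fits.

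Libraries of 1 group and set also differed among themselves. Of the 5 HT vehicle females of set 1, replicates 4 and 5 had 7485 and 7195 for Hspa5, and replicates 1 to 3 had 5080, 5303 and 5791. Xbp1 was 2118 and 2098 against 1611, 1625 and 1768 in the same libraries, and Sdf2l1 was 376.4 and 386.5 against 248.2, 217.1 and 218.6. These 5 libraries share genotype, drug, sex and set. The 6 other sex comparisons (genotype under vehicle and under lithium, and each drug in each genotype) called none of the 10 genes and 0% of all genes. In them, limma gave 389 to 1934 genes and 0 to 5 of the 10 at an unadjusted p under 0.05, and edgeR and DESeq2 also called none of the 10. For genotype under lithium the values ran the other way from fluoxetine, with 9 of 10 negative, such as -0.41 for Pdia4 (SE 0.16) and -0.59 for Sdf2l1 (SE 0.26), and none passed (adjusted p = 1.0 for both).

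Lithium libraries had higher levels of 6 of the 10 genes in WT and 5 of the 10 in HT when all libraries were used, but none passed in either genotype once vehicle libraries of the same set served as controls. Within the set, 0.664% of all genes were called in WT and 0.162% in HT. Averaged over both genotypes, a comparison added later, Hspa5 was the 1 of the 10 genes called within the set, against 1.8%. It was no longer called with marker scores as covariates. With all libraries, 36.1% of all genes were called in WT and 18.6% were called higher. There, 6 of 10 stands against a large background. In HT the background was 1.52%, with 1.03% higher.

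Hspa5 in WT ran from 5157 through a median of 6005 to 6880 under vehicle (n = 15) and from 6618 through 7344 to 8970 under lithium (n = 8). Its log2 difference was 0.32 (SE 0.06, 1.25-fold, adjusted p = 1.1e-04). In HT it ran from 5080 through 5788 to 7485 under vehicle (n = 16) and from 6122 through 7740 to 8503 under lithium (n = 9), a difference of 0.29 (SE 0.06, adjusted p = 0.0074). The ranges overlapped in both genotypes. Sdf2l1 in WT ran from 174.4 through 229.2 to 347.4 under vehicle and from 285.2 through 423.1 to 478.8 under lithium (0.67, SE 0.12, adjusted p = 3.2e-05), and in HT it was 0.44 higher (SE 0.11, adjusted p = 0.030). Hyou1 was 0.30 higher in WT (SE 0.07, adjusted p = 3.5e-04) and 0.26 higher in HT (SE 0.06, adjusted p = 0.019).

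Pdia4 was 0.29 higher in WT (SE 0.07, adjusted p = 0.0012) and 0.30 higher in HT (SE 0.07, adjusted p = 0.013). Pdia6 was 0.23 higher in WT (SE 0.05, adjusted p = 4.1e-04) and 0.19 higher in HT (SE 0.05, adjusted p = 0.030). Calr passed in WT alone (0.20, SE 0.04, adjusted p = 3.7e-04), with 0.11 in HT (adjusted p = 0.12). Hsp90b1, Pdia3, Xbp1 and Dnajb9 passed in neither genotype, with differences from -0.06 to 0.09. The test between genotypes called none of the 10 genes, against 2.8% of all genes, and its largest value was -0.23 for Sdf2l1 (SE 0.16, adjusted p = 0.42).

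With all libraries, lithium in HT called 4 of 25 further ER chaperones, all higher: Dnajc3 (0.14), Manf (0.18), Dnajb11 (0.12) and Canx (0.10). It also called 2 of 24 genes of ER-associated degradation higher, Sel1l (0.16) and Herpud1 (0.20), and Stt3b (0.13) among 22 of translocation and N-glycosylation. Atf3, a stress-induced transcription factor, was the 1 called gene of the Atf4 list and was lower (-1.24, SE 0.32, adjusted p = 0.033). In WT with all libraries, 9 of 25 further ER chaperones were called higher and 2 lower. Of 16 Atf4 and integrated stress response genes, 10 were called higher and 2 lower. These WT counts stand against a large background, with 18.6% of all genes called higher and 17.5% lower. In HT the same shares were 1.03% and 0.491%. Most WT vehicle libraries belong to a different library set from the lithium libraries, so lithium and set are mixed in the WT counts.

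The WT vehicle controls themselves differed by set. In WT vehicle, Hyou1 ran from 2296 to 2740 in the 10 libraries of set 3 and from 3190 to 3374 in the 5 of set 2. Sdf2l1 ran from 174.4 to 275.1 in set 3 and from 318.4 to 347.4 in set 2. Neither gene overlapped between the sets, although genotype and drug were the same. Set 3 minus set 2 was -0.41 for Hyou1 (SE 0.05, adjusted p = 1.8e-08) and -0.64 for Sdf2l1 (SE 0.12, adjusted p = 1.9e-05). Hspa5 (-0.22), Pdia4 (-0.28), Pdia6 (-0.20) and Calr (-0.14) were lower too, and Pdia3 (0.15) and Dnajb9 (0.19) were higher, so 8 of 10 were called against 42.4% of all genes. Cell markers moved with the set in the same comparison: 9 of 10 olfactory bulb markers were called higher in set 3 (median 2.70), 7 of 10 striatal neuron markers lower (median -0.91), 8 of 10 oligodendrocyte markers lower (median -0.70), 6 of 9 oligodendrocyte precursor markers lower and 1 higher (median -0.42), and 5 of 10 meningeal fibroblast markers higher (median 0.32). Their part in the chaperone values was not tested. The lithium comparison in WT with all libraries uses these same controls. In HT vehicle, set 1 minus set 2 called Hyou1 alone (-0.22, SE 0.05, adjusted p = 0.015), against 1.62% of all genes. Olfactory bulb markers had a median of 1.07 there with 0 of 10 called.

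Within set 2, Hspa5 ran from 6471 through 6562 to 6880 in WT vehicle (n = 5) and from 6618 through 7344 to 8970 in WT lithium (n = 8), a difference of 0.17 (SE 0.08, adjusted p = 0.35). In HT it ran from 5401 through 6213 to 7128 under vehicle (n = 6) and from 6122 through 7740 to 8503 under lithium (n = 9), a difference of 0.25 (SE 0.07, adjusted p = 0.12). Vehicle and lithium overlapped in both. Sdf2l1 was 0.23 higher in WT (SE 0.13, adjusted p = 0.46) and 0.29 higher in HT (SE 0.11, adjusted p = 0.30). For Hyou1 the difference was 0.03 in WT (SE 0.06) and 0.10 in HT (SE 0.05). All 10 genes had a positive difference in both genotypes and limma called 0 of 10 in each, against 0.664% of all genes in WT and 0.162% in HT. At an unadjusted p under 0.05 there were 2 of 10 in WT and 5 of 10 in HT. Of all 17922 genes, 2163 in WT and 1922 in HT had such a p.

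Averaged over both genotypes within set 2, a comparison added after the separate ones were seen, Hspa5 was 0.21 higher (SE 0.05, 1.16-fold, adjusted p = 0.017), the 1 of 10 called against 1.8% of all genes. Without HT vehicle male replicate 8 its adjusted p was 0.060, without WT vehicle male replicate 6 it was 0.066, and with marker scores as covariates the difference was 0.20 (adjusted p = 0.25). Sdf2l1 followed at 0.26 (SE 0.08, adjusted p = 0.098), Pdia4 at 0.16 (SE 0.06, adjusted p = 0.14) and Pdia6 at 0.12 (SE 0.04, adjusted p = 0.14). With all libraries the same average called 6 of 10 genes, against 35.9% of all genes.

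**Figure D3:**
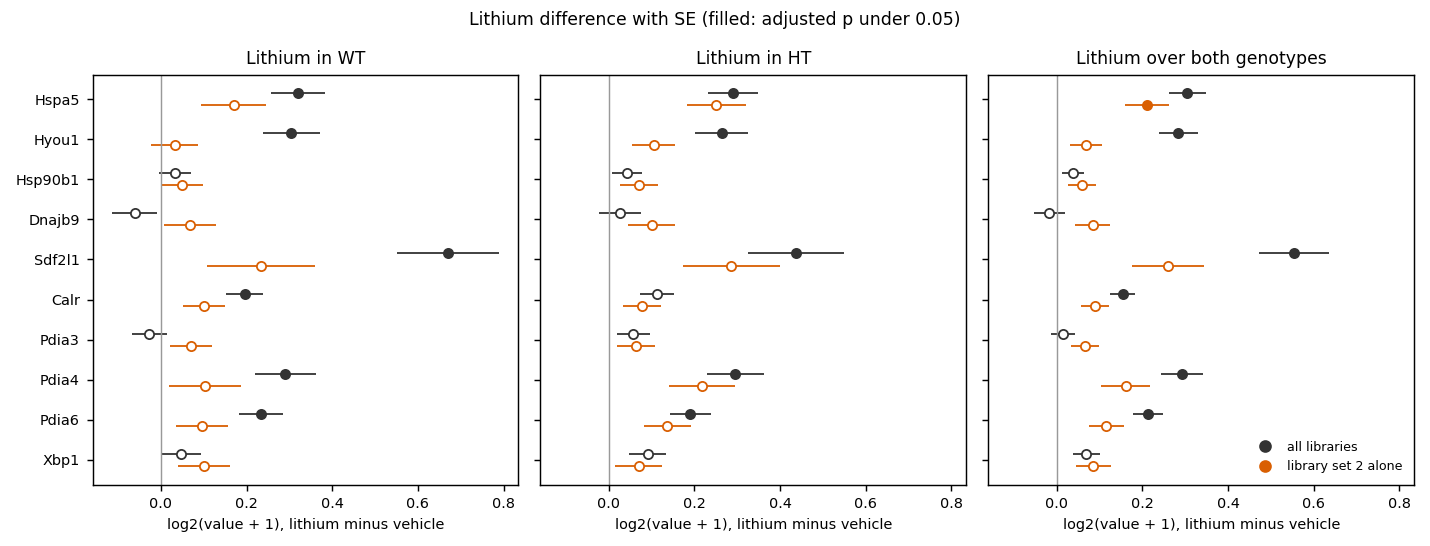
Log2 difference of lithium minus vehicle (horizontal axis, log2(value + 1)) of the 10 genes in WT, in HT and averaged over both; bars are SE, black all libraries, orange library set 2 alone, and filled points passed an adjusted p of 0.05. The orange points lie nearer 0 than the black ones for Hspa5, Sdf2l1, Hyou1, Pdia4 and Pdia6 in each panel. Hspa5 averaged over both genotypes is the 1 filled orange point, at 0.21 (0.31 with all libraries).

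In the same averaged comparison within set 2, 3 of 25 further ER chaperones were called higher: Dnajc3, an Hspa5 co-chaperone that also inhibits Perk, by 0.14 (SE 0.03, adjusted p = 0.021), calnexin (Canx), the membrane-bound partner of calreticulin, by 0.10 (SE 0.02, adjusted p = 0.021), and Dnajb11, a J-domain co-chaperone of Hspa5, by 0.11 (SE 0.03, adjusted p = 0.030). Of the sensors and transducers, Ppp1r15b, a regulatory subunit of the phosphatase that acts on eIF2α, was the 1 called of 12 (0.12, SE 0.03, adjusted p = 0.010). Of 16 Atf4 and integrated stress response genes, 2 were called: Atf4 itself by 0.31 (SE 0.04, adjusted p = 5.0e-07) and Sesn2, a stress-induced regulator of mTORC1, by 0.23 (SE 0.05, adjusted p = 0.0036). Stt3b and Ssr3 were the 2 called of 22 tested genes of translocation and N-glycosylation, at 0.08 and 0.10, and Txndc11 was the 1 of 16 isomerases and oxidases, at 0.09. None of 24 genes of ER-associated degradation, 21 cytosolic heat shock chaperones or 9 mitochondrial chaperones was called. The median was 0.09 over the 10 genes and -0.00034 over all genes. Among the markers, Pvalb (interneurons) was called higher and Cdh5 (endothelium) and Col3a1 (meningeal fibroblasts) lower. The choroid plexus markers had a median of -0.28 and the striatal neuron ones -0.05. In the separate genotypes the striatal markers leaned opposite ways within set 2, with a median of 0.47 in HT (10 of 10 positive) and -0.43 in WT (0 of 10), and so did olfactory bulb markers, at -0.81 and 0.65. With all libraries, olfactory bulb medians were -1.22 in HT and -1.12 in WT, and 9 of 10 meningeal fibroblast markers were called lower in WT. The part of these cells in the values above was not tested beyond the fit with marker scores. That fit held no score for olfactory bulb or excitatory neurons.

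Between genotypes with the sexes averaged, 1 of the 10 genes passed in 1 of 3 treatments. Under vehicle 1 of 10 was called, against 15% of all genes: Pdia3 ran from 4066 through 4533 to 5029 in HT (n = 16) and from 4369 through 4885 to 5441 in WT (n = 15), a difference of -0.11 (SE 0.03, adjusted p = 0.016) with overlapping ranges. Pdia3 is also one of the genes that were higher in set 3, which holds most WT vehicle libraries. Within set 2 its genotype difference was -0.02 (SE 0.05), and 0 of 10 were called against 0.536% of all genes. With limma, genotype called 0 of 10 under fluoxetine (1 at an unadjusted p under 0.05), against 1.98% with all libraries and 2.85% in the split fit. It also called 0 of 10 under lithium (0 unadjusted), against 2.51% and 4.49%. Of all 17922 genes, 2258 under fluoxetine and 2766 under lithium had an unadjusted p under 0.05 with all libraries. edgeR and DESeq2 called 0 of 10 in both. The largest of these averaged values was 0.13 for Xbp1 under fluoxetine (SE 0.05, adjusted p = 0.14), which joins the 0.46 of females and the -0.19 of males.

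Fluoxetine against vehicle, averaged over the sexes, called 0 of 10 genes in HT (1.22% of all genes) and 0 of 10 in WT (5.43%) with limma. At an unadjusted p under 0.05 there were 5 of 10 in HT and 2 of 10 in WT. Of all 17922 genes, 2450 in HT and 3982 in WT had such a p. edgeR called 0 of the 10 in both, and DESeq2 called 0 and 1. In HT the values ran from 0.02 for Hyou1 to 0.12 for Calr (SE 0.04, adjusted p = 0.094) and Hspa5. Within set 1 the HT values were between 0.07 and 0.13, again 0 of 10, against 0.167% of all genes. In WT they ran from -0.11 for Pdia3 (SE 0.04, adjusted p = 0.068) to 0.10 for Sdf2l1, where fluoxetine and library set cannot be told apart. The fluoxetine effect did not pass as different between the genotypes for any of the 10, and 0% of all genes were called. In that comparison, limma gave 2187 genes at an unadjusted p under 0.05, edgeR called 1 gene and DESeq2 10. Pdia3 had the highest value there, at 0.19 (SE 0.05, adjusted p = 0.17).

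Within groups, most of these genes were positively correlated from library to library. With the 12 group means removed, the Pearson correlation with Hspa5 over the 68 libraries was 0.85 for Pdia4 and 0.83 for Pdia6, the closest of 17921 genes. Calr (0.74), Sdf2l1 (0.72), Xbp1 (0.66), Hyou1 (0.63) and Hsp90b1 (0.62) ranked 4, 5, 12, 17 and 31. Pdia3 (0.37) and Dnajb9 (0.20) ranked 966 and 3423. The 10 closest genes outside the list were Dnajb11 (0.74), Hspa8 (0.71), Mcfd2 (0.71), Bpnt1 (0.69), Vdac1 (0.68), Sf3a3 (0.67), Klhl8 (0.67), Rpn1 (0.66), Actr8 (0.65) and Ran (0.64). Of the 45 pairs among the 10 genes, 40 were positive, with a median of 0.54. The 5 negative pairs all held Dnajb9 or Pdia3: Dnajb9 with Hyou1 (-0.28), Sdf2l1 (-0.20) and Calr (-0.09), and Pdia3 with Hyou1 (-0.18) and Sdf2l1 (-0.13). With the mean of each group within each set removed, Xbp1 rose to rank 2 (0.80), Hsp90b1 to 5 (0.74), Pdia3 to 7 (0.69) and Dnajb9 to 239 (0.50), while Hyou1 fell to 58 (0.58). All 45 pairs were then positively correlated, with a median of 0.57, and the median correlation of all genes with Hspa5 was -0.01. These libraries share size factors, dissection and set, so the values are descriptions.

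**Figure D4:**
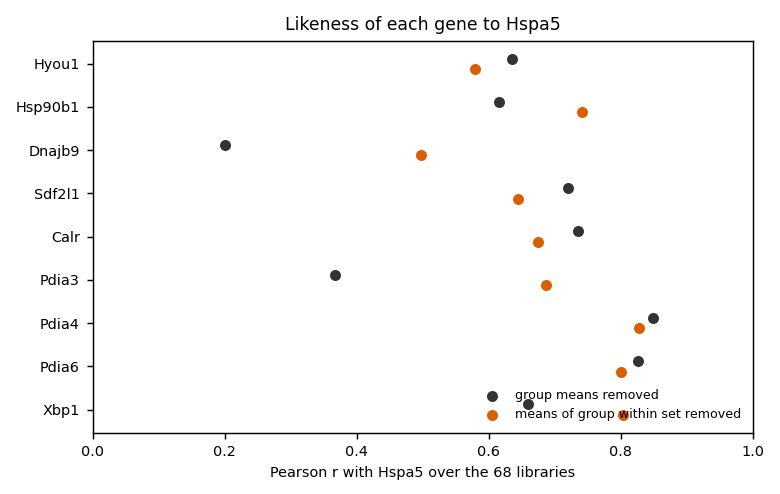
Pearson correlation with Hspa5 (horizontal axis) over the 68 libraries for the other 9 genes (vertical axis), black with group means removed and orange with the means of each group within each library set removed. Pdia4 and Pdia6 stay at 0.80 or above in both, and Pdia3 and Dnajb9 are low in the first, at 0.37 and 0.20, and at 0.69 and 0.50 in the second.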

How the data were processed

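Prefrontal cortex polyadenylated RNA of 68 mice was sequenced with a stranded kit, per the labels' protocols. The deposited values are a signal per gene, gene counts divided by a size factor. The submitters' processing notes name Salmon 0.11.2, R 3.6.0, DESeq2 1.19.11 and build GRCm38. Low values in each library are whole multiples of 1 step, from which whole reads were recovered (100% of values within 0.01 of a whole read). Symbols of 18077 of 18088 genes came from GENCODE release 21.

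Genes with a mean of at least 5 (17922, leaving out 166) were tested with limma 3.58.1 (trend, robust, R 4.3.3) on log2(value + 1), so a fold change understates that of low genes. The fit held 12 groups of genotype, drug and sex, and contrasts average the sexes. p-values were adjusted by Benjamini-Hochberg, with a threshold of 0.05. Library sets came from average linkage on 361 pseudogenes. A second fit split each group by set. edgeR 4.0.16 and DESeq2 1.42.0 on recovered reads were alternatives: for lithium in HT edgeR called 239 genes and limma 273. The test was also run on simulated data with changes under lithium alone. Those data held no effect of library set, sex or tissue, so that run does not bear on such effects.

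The 10 genes and all lists were chosen with earlier results of these data known. The named genes are the 10 in every comparison, up to 4 genes of the other lists with the smallest p, Adnp, and the 10 others most correlated with Hspa5.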

Additional observations from a re-analysis of the deposited data

Results flagged for a closer look

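In the genotype effect under fluoxetine, female minus male, 6 genes differed by the test of the difference itself: Xbp1 (0.64), Pdia4 (0.73), Hspa5 (0.58), Pdia6 (0.44), Calr (0.34) and Sdf2l1 (0.95), all on the log2 scale. Of 110 sets of values (10 genes in the 11 groups of 4 to 8 libraries), 4 had 1 library far from the rest by Dixon's criterion, where chance alone flags about 1 in 20. Hspa5 in HT fluoxetine male replicate 4 was 6435, with the other 4 libraries at 5538 to 5675. Hsp90b1 in WT fluoxetine female replicate 5 was 7439, below 7832 to 7987. Pdia3 and Pdia4 in HT lithium female replicate 3 were 5225 and 1123, above 4400 to 4517 and 1015 to 1023. Without that last library the lithium count in HT was 1 of 10.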

How the results depend on the processing

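Counts are of the 10 genes, and those for the sex differences are over 7 comparisons. The last 3 results named with marker scores, and their alternatives, were chosen after seeing the data. Within library sets, and with set as an additive term, lithium in HT fell from 5 to 0, lithium in WT from 6 to 0 and genotype under vehicle from 1 to 0. With marker scores as covariates, lithium in HT fell to 0, genotype under vehicle rose to 2, fluoxetine in WT rose from 0 to 1, sex differences fell from 6 to 2, the female genotype difference under fluoxetine fell from 5 to 1, the male one rose from 0 to 1, and lithium over both genotypes within set 2 fell from 1 to 0. DESeq2 gave 1 for fluoxetine in WT. Whether the labels' replicate numbers pair libraries was not settled. Of 69 same-number pairs, 19 had r over 0.1 (range -0.24 to 0.51), among them 7 of 15 between genotypes under vehicle. Vehicle libraries numbered 6 or above are those of set 2, so number and set go together there. With a replicate block, fluoxetine in HT gave 1 and fluoxetine in WT gave 4. The cause of these changes was not tested.

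Leaving out 1 library gave 1 to 2 genes for genotype under vehicle, 0 to 1 for genotype under fluoxetine, 0 to 1 for fluoxetine in WT, 1 to 5 for lithium in HT, 6 for lithium in WT in every case, 2 to 7 for sex differences, 0 to 1 for lithium over both genotypes within set 2, 4 to 5 for genotype under fluoxetine in females and 0 in males. For lithium in HT the count was 1 without HT lithium female replicate 3. It was 3 without HT lithium male replicate 2, HT vehicle female replicate 1, HT vehicle male replicate 3 or HT vehicle male replicate 5. Genotype under vehicle gave 2 without HT vehicle female replicate 4, HT vehicle male replicate 1, or WT vehicle male replicate 6 or 7. Genotype under fluoxetine gave 1 without HT fluoxetine female replicate 1 or WT fluoxetine male replicate 5. Fluoxetine in WT gave 1 without WT vehicle female replicate 7 or 8, or WT vehicle male replicate 3, 6 or 7. Pseudocounts, filters, quantile and TMM scaling and edgeR moved no count by over 1.5 times. No gene's called value changed sign in the alternatives run. Fluoxetine in WT has no fit within a set.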
